A study of Mus musculus with 4 samples.

Results

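The genes described here handle iron in the heart: 10 genes for the uptake, export, storage and sensing of iron, chosen by symbol from the 43346 genes of the deposited table. They are Hamp, Slc40a1, Cp, Tfrc, Slc11a2, Slc39a14, Fth1, Ftl1, Aco1 and Ireb2, and all 10 were found. They were read in hearts of C57BL/6 mice at 6 weeks of age: 2 hearts labelled PRMT1-cKO, in which the series title places the PRMT1 deficiency in cardiomyocytes, and 2 hearts labelled WT. No source used here names the promoter that drives the deletion, and whether the other cells of a PRMT1-cKO heart keep the gene was not checked. PRMT1 is an enzyme that methylates arginines of proteins. The stated purpose was to examine mRNA levels and splicing, and the design text gives 2 mice per genotype.

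Ferroportin, the product of Slc40a1, is the known exporter of iron from animal cells. Hepcidin, the peptide made from Hamp, binds ferroportin and has it degraded; the liver makes most of it, and cardiomyocytes make some of their own. Inside cells, the iron regulatory proteins encoded by Aco1 and Ireb2 bind hairpins called iron-responsive elements (IREs): in a 5′ UTR the hairpin holds back translation when iron is low, and in a 3′ UTR it protects the mRNA from decay.

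Each library was counted in 3 ways. Gene reads are the sum of exon reads and intron reads. Exon reads are almost only reads across an exon junction, so they follow spliced RNA. Intron reads are the reads of a gene that the deposited counts class as intron. Where reads lying wholly within an exon were counted is not stated, and they may be among the intron reads. The libraries held 18291730 to 25509854 gene reads and 544891 to 764806 exon reads. Levels are given as CPM on scaled library sizes, separately for each kind of read. Prmt1 had no exon read in any library, and 33 and 44 gene reads in PRMT1-cKO hearts, against 33 and 18 gene reads in WT hearts (log2 change 0.44 ± 0.34 SE, edgeR adjusted p = 0.394). No source used here names the deleted exons, so these reads do not check the genotype, and PRMT1-cKO and WT below are the hearts so labelled. Summed markers of cardiomyocytes were 2327 to 2729 CPM of gene reads in PRMT1-cKO hearts and 4676 to 4738 in WT hearts, and 7 of 10 of these genes were lower in PRMT1-cKO by the test used below. In bulk hearts, fewer cells of a type and less RNA per cell cannot be told apart.

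In gene reads, Slc40a1 and Cp were higher and Hamp and Slc39a14 were lower in PRMT1-cKO hearts. The export gene Slc40a1 was 4.29-fold higher, the hepcidin gene Hamp was at 0.0996 of its WT level by the fit, and the other 6 genes did not pass the test. The test was edgeR's quasi-likelihood test over all genes, two-sided, with a Benjamini-Hochberg adjusted p under 0.05. All 10 genes were tested, and 4 changed (40%), where 22.7% of the 13869 genes tested changed in either direction. Hamp is among the 4, though it passed the read filter only through the WT hearts, which set the direction of its test. The median log2 change of the 10 genes was -0.01, against 0.01 over all genes tested. The CPM of the groups did not overlap for 8 of the 10 genes, where this held for 59.5% of all genes tested. In exon reads, 7 of the 10 genes had enough reads; Slc40a1, Fth1 and Cp were higher and Hamp and Aco1 lower, which is 5 of 7 (71.4%), where 36.2% of the 4756 genes tested changed. The groups did not overlap in exon reads for 5 of the 7 iron genes tested, where this held for 68% of all genes tested. The genes that passed this filter do not stand for all 10, and with DESeq2 in place of edgeR 1 of the exon calls remained, that of Hamp. In intron reads 9 genes could be tested, Slc40a1, Fth1 and Cp were higher and Slc39a14 lower, where 21.8% of 13217 genes changed in either direction; the groups did not overlap for 5 of the 9, where this held for 58.2% of all genes tested.

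**Figure D1:**
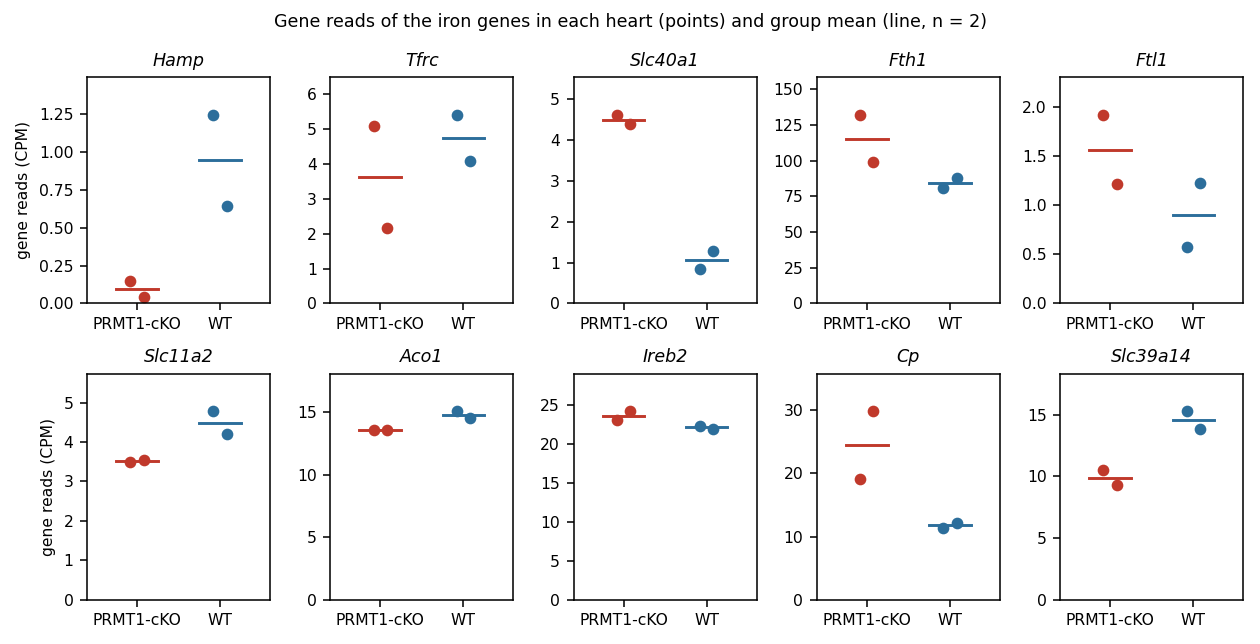
CPM of gene reads (vertical axis, from 0) of the 10 iron genes in the 2 PRMT1-cKO hearts (red, left) and the 2 WT hearts (blue, right); points are hearts and lines are group means (n = 2). Both PRMT1-cKO values lie below both WT values for Hamp and Slc39a14 and above them for Slc40a1 and Cp, while Tfrc and Ftl1 overlap.

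**Figure D2:**
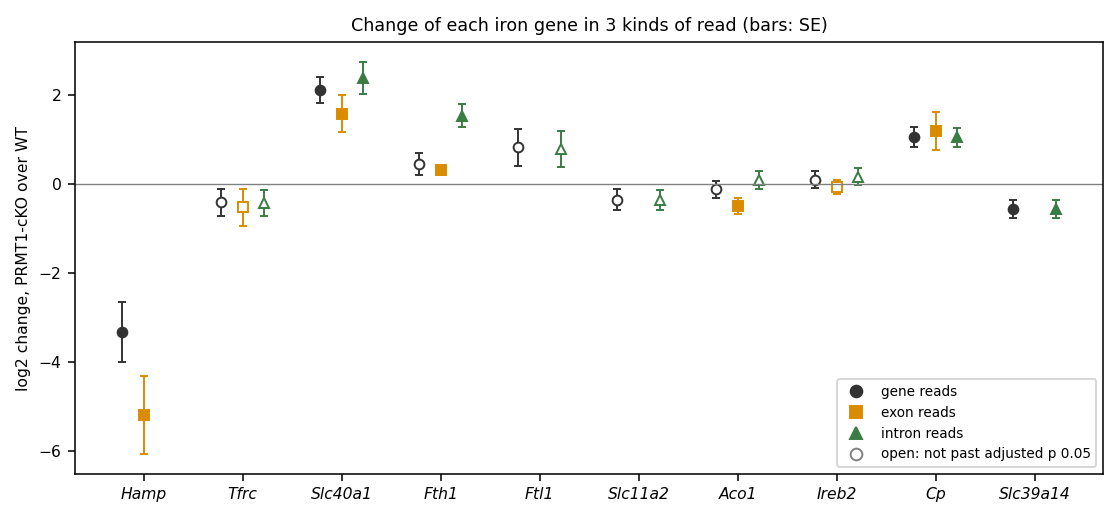
Fitted log2 change, PRMT1-cKO over WT (vertical axis), with its SE (bars) for each iron gene in gene reads (circles), exon reads (squares) and intron reads (triangles); filled symbols passed an adjusted p of 0.05 and missing symbols had too few reads. Slc40a1 and Cp lie above 0 in all 3 kinds of read, and Fth1 is higher in intron reads (1.53) than in exon reads (0.31).

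Hamp, at chr7:30942371-30944017 on GRCm38, had few reads in any heart. It had 3 and 1 gene reads in PRMT1-cKO hearts, against 28 and 11 gene reads in WT hearts, or 0.147 and 0.0418 CPM against 1.24 and 0.643 CPM. In exon reads the counts were 0 and 1 in PRMT1-cKO hearts and 28 and 11 in WT hearts. All WT reads of Hamp were exon reads, and 3 of the 4 PRMT1-cKO reads were counted as intron reads. The groups did not overlap in gene or exon reads. With PRMT1-cKO counts this low, Hamp passed the read filter only through the WT hearts. The direction of its tests in gene and exon reads was thus set by the filter. The log2 change was -3.33 ± 0.68 (SE, n = 2 per group; edgeR adjusted p = 1.09e-03) in gene reads and -5.18 ± 0.88 (SE; edgeR adjusted p = 2.38e-04) in exon reads. From the summed exon reads, 1 against 39, the ratio of PRMT1-cKO to WT was 0.0215, with a 95% counting interval of 5.30e-04 to 0.127 that holds no spread between hearts. Leaving out PRMT1-cKO replicate 1 gave -4.38 and leaving out PRMT1-cKO replicate 2 gave -2.69 in gene reads. In exon reads the order was the other way, with -4.23 when PRMT1-cKO replicate 1 was left out and -7.40 when PRMT1-cKO replicate 2 was left out and the remaining PRMT1-cKO heart had 0 reads. Without WT replicate 1 the gene had too few reads to be tested in either kind of read. Its near copy Hamp2 (93.0% identical in the transcript) had 0 gene reads in both PRMT1-cKO hearts and 0 and 1 in WT hearts. A long non-coding RNA, Gm44662, lies over Hamp on the opposite strand, and whether strand was used in counting is not stated.

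The stretch upstream of Hamp is shown because it is the gene with the lowest PRMT1-cKO to WT ratio and is known to answer to BMP and interleukin 6 signals. The RefSeq promoter table has an entry for 7 of the 10 genes. The 250 bases before the Hamp start (chr7:30944030-30944279, minus strand, GRCm38.p6) are printed 5′ to 3′ with 2 motifs in capitals, GGCGCC, the core of a BMP-responsive element, and TTCTTGGAA, a match to the STAT site TTCNNNGAA:
Hamp: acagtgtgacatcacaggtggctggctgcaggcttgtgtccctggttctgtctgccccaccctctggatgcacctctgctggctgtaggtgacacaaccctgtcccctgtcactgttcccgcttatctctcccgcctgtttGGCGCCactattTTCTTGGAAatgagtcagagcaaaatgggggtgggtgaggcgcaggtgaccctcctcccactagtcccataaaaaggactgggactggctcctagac
The motifs begin 109 and 97 bases before the start. GGCGCC and the pattern TTCNNNGAA each read the same on both strands, so 1 search covers both, and the 2 sites do not overlap. Of 32851 promoters of this length, 9.59% hold GGCGCC, 7.02% hold TTCNNNGAA and 0.368% hold both. A match is a description of the letters and not evidence of binding in these hearts.

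Slc40a1 (chr1:45908068-45926523) encodes ferroportin, the iron exporter. It had 94 and 105 gene reads in PRMT1-cKO hearts, against 19 and 22 gene reads in WT hearts, or 4.61 and 4.39 CPM against 0.842 and 1.29 CPM. Both PRMT1-cKO hearts lay well above both WT hearts. The log2 change was 2.10 ± 0.30 (SE, n = 2 per group; edgeR adjusted p = 3.04e-05). Exon reads numbered 31 and 33 in PRMT1-cKO hearts and 10 and 8 in WT hearts (log2 change 1.57 ± 0.41; edgeR adjusted p = 0.00749, DESeq2 adjusted p = 0.0640). Intron reads numbered 63 and 72 in PRMT1-cKO hearts and 9 and 14 in WT hearts, a log2 change of 2.37 ± 0.36 (edgeR adjusted p = 1.06e-05). Spliced and intron reads of ferroportin were therefore both higher, and their difference in log2 change, -0.70, did not pass the exon against intron test (adjusted p = 1). In gene and intron reads the call held under each alternative tried. Macrophages, which recycle iron, are known for high ferroportin. Their 11 markers summed to 136 to 170 CPM of gene reads in PRMT1-cKO hearts and 56.6 to 66.4 CPM in WT hearts, and 9 of the 11 were higher in PRMT1-cKO. Fibroblast markers also summed higher, at 467 to 852 CPM in PRMT1-cKO hearts and 150 to 208 CPM in WT hearts, with 7 of 8 higher. The part of these cells in the Slc40a1 result was not tested.

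Cp (chr3:19957054-20009145) encodes ceruloplasmin, the copper ferroxidase that oxidises exported iron for loading on transferrin. It had 390 and 714 gene reads in PRMT1-cKO hearts, against 257 and 209 gene reads in WT hearts, or 19.1 and 29.9 CPM against 11.4 and 12.2 CPM. The groups did not overlap, and the 2 PRMT1-cKO hearts differed more from each other than the WT hearts did. The log2 change was 1.06 ± 0.22 (SE, n = 2 per group; edgeR adjusted p = 1.41e-03). Junction reads were scarce: 32 and 42 exon reads in PRMT1-cKO hearts and 9 and 18 in WT hearts, 6.43% of its gene reads. Their log2 change was 1.19 ± 0.43 (edgeR adjusted p = 0.0402), a call lost with DESeq2 (adjusted p = 0.158). By edgeR it was 0.66 when WT replicate 1 was left out (adjusted p = 0.324), 0.90 when PRMT1-cKO replicate 2 was left out (adjusted p = 0.142) and 1.85 when WT replicate 2 was left out. The protein-coding gene Hps3 overlaps Cp on the opposite strand. In the authors' deposited table, 3 of the 10 genes had a corrected p-value under 0.05: Slc40a1 with a fold of 4.29, Cp with 2.08 and Hamp with -10.1.

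The IREs are shown because 4 of the 10 genes hold a hairpin of the strict form searched for here. A search for the conserved loop (a C, 5 bases, then CAGTG and 1 more base) with all 5 upper pairs and at least 3 of 5 lower pairs, on the transcript strand, found such a hairpin in a UTR of 31 of 21840 protein-coding genes (0.142%) of GENCODE M21 on GRCm38. Fth1, Ftl1 and Slc40a1 hold 1 in the 5′ UTR and Tfrc holds 4 in the 3′ UTR. The other 6 genes hold none of this form. IREs of other forms were not searched for, so the search does not show that those 6 genes lack an IRE. Capitals mark the bulged C and the loop with the base after it:
Fth1 5′ UTR, chr19:9982733-9982759, plus strand: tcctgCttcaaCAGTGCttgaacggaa
Ftl1 5′ UTR, chr7:45459780-45459806, minus strand: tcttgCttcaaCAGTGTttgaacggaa
Slc40a1 5′ UTR, chr1:45925466-45925492, minus strand: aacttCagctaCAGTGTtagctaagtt
Tfrc 3′ UTR, chr16:32631220-32631246, plus strand: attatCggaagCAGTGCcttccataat
Tfrc 3′ UTR, chr16:32631599-32631625, plus strand: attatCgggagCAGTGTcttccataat
Tfrc 3′ UTR, chr16:32631664-32631690, plus strand: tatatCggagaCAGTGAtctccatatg
Tfrc 3′ UTR, chr16:32631711-32631737, plus strand: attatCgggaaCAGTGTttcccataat
The genes with a 5′ hairpin are known to be held back in translation, which these RNA counts do not measure.

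Fth1 (chr19:9982703-9985092), the heavy chain of ferritin with the ferroxidase site, had the most exon reads of the 10 genes. It had 2577 and 2251 exon reads in PRMT1-cKO hearts, against 1792 and 1476 exon reads in WT hearts, or 3483 and 3516 CPM against 2897 and 2748 CPM. The groups did not overlap, and the log2 change was 0.31 ± 0.11 (SE, n = 2 per group; edgeR adjusted p = 0.0379). DESeq2 did not make this call (adjusted p = 0.0950), edgeR with no read filter did not (adjusted p = 0.0533), and edgeR did not make it when WT replicate 1 (adjusted p = 0.200) or WT replicate 2 (adjusted p = 0.342) was left out. Gene reads gave 0.45 ± 0.24 (edgeR adjusted p = 0.205), and passed when PRMT1-cKO replicate 2 was left out (0.62, adjusted p = 0.0365 by edgeR). The authors' deposited RPKM, which divides exon reads by exon length and by all gene reads, was 163 and 139 in PRMT1-cKO hearts and 81.1 and 78.5 in WT hearts. Exon reads were 4.18 and 3.60% of all gene reads in PRMT1-cKO hearts and 2.45 and 2.51% in WT hearts, and the mitochondrial ribosomal RNA mt-Rnr2 took 52.8 and 51.2% in PRMT1-cKO hearts and 64.9 and 65.8% in WT hearts. The RPKM divisor holds all of these reads, and the RPKM gap between the groups is wider than the CPM gap.

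The intron reads of Fth1 rose more than its exon reads. They numbered 113 and 113 in PRMT1-cKO hearts and 42 and 29 in WT hearts, or 5.95 and 4.72 CPM against 1.90 and 1.77 CPM. The log2 change was 1.53 ± 0.25 (SE, n = 2 per group; edgeR adjusted p = 3.60e-05). Exon against intron reads were compared within each gene with diffSpliceDGE, and 6 of the 10 genes could be tested. Fth1 was the 1 that passed, with an exon minus intron difference of -1.11 (edgeR diffSpliceDGE adjusted p = 0.0434), where 3.6% of the 4196 genes tested passed. Over all of these the median difference was 0.19. Fth1 did not pass in the 2 PRMT1-cKO hearts and WT replicate 2 alone (adjusted p = 0.862), in those and WT replicate 1 alone (adjusted p = 1), or when PRMT1-cKO replicate 2 was left out (adjusted p = 0.0680). The other 5 differences ran between -0.70 for Slc40a1 and 0.20 for Cp, each with an adjusted p of 1.

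**Figure D3:**
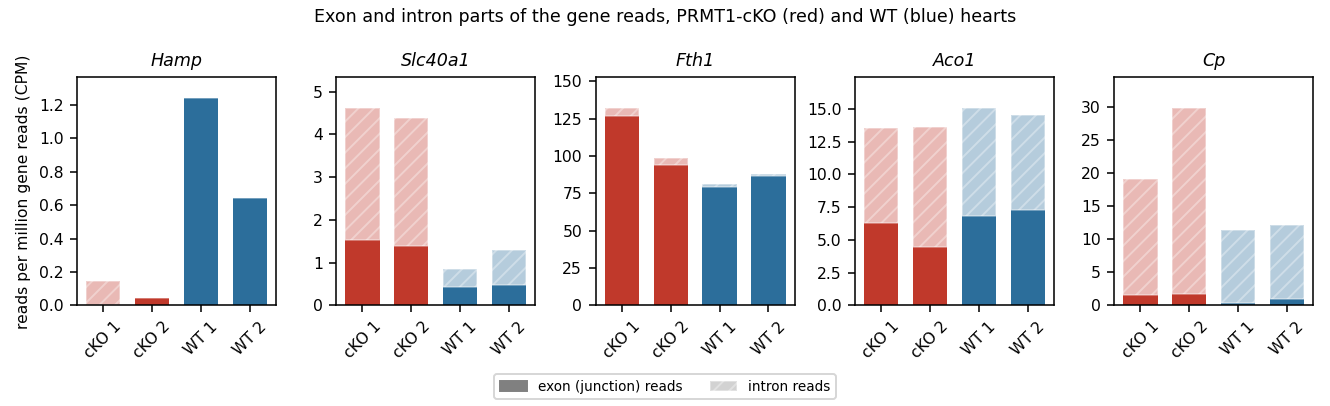
Exon (solid) and intron (hatched) parts of the gene reads of Hamp, Slc40a1, Fth1, Aco1 and Cp (panels), in CPM of scaled gene reads on the vertical axis, for each PRMT1-cKO heart (red, left) and each WT heart (blue, right). The reads of Fth1 are nearly all exon reads in every heart, those of Cp are mostly intron reads, and the WT reads of Hamp are exon reads only.

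Ftl1 (chr7:45457944-45459884), the light chain of ferritin, could not be followed in spliced RNA. It had 4 and 0 exon reads in PRMT1-cKO hearts and 0 and 1 in WT hearts. Gene reads numbered 39 and 29 in PRMT1-cKO hearts and 13 and 21 in WT hearts, or 1.91 and 1.21 CPM against 0.576 and 1.23 CPM. The groups overlapped, with a log2 change of 0.82 ± 0.41 (SE, n = 2 per group; edgeR adjusted p = 0.174). In GENCODE M21, 9 other genes match an Ftl1 transcript at 90% or more over at least 200 bases, 6 of them pseudogenes, with an identity of up to 100%. Reads that fit several places could be assigned to these copies or dropped, so the Ftl1 values are uncertain; all reads counted in the table are unique ones. Fth1 has 1 such copy, the pseudogene Gm6977 at 90.5%. The ferritin genes Ftl2 and Ftmt were listed at 0 in all 4 hearts.

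Tfrc (chr16:32608920-32632794), the transferrin receptor that brings iron into most cells, had 104 and 52 gene reads in PRMT1-cKO hearts, against 122 and 70 gene reads in WT hearts, or 5.10 and 2.17 CPM against 5.40 and 4.09 CPM. PRMT1-cKO replicate 1 lay among the WT hearts and PRMT1-cKO replicate 2 lay below them. The log2 change of -0.41 ± 0.31 (SE, n = 2 per group) did not pass (edgeR adjusted p = 0.383). The result depends on which PRMT1-cKO heart is kept: with PRMT1-cKO replicate 2 alone it was -1.17 (edgeR adjusted p = 0.00173), and with PRMT1-cKO replicate 1 alone it was 0.07. Exon reads were 39 and 12 in PRMT1-cKO hearts and 37 and 24 in WT hearts, with the same split.

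Slc39a14 (chr14:70303469-70351425), which encodes the ZIP14 carrier of zinc and non-transferrin iron, had 214 and 222 gene reads in PRMT1-cKO hearts, against 345 and 237 gene reads in WT hearts. On the scaled libraries this was 10.5 and 9.28 CPM in PRMT1-cKO hearts and 15.3 and 13.9 CPM in WT hearts, without overlap. The log2 change was -0.56 ± 0.19 (SE, n = 2 per group; edgeR adjusted p = 0.0435), close to the threshold, and neither DESeq2 (adjusted p = 0.124) nor edgeR with no read filter (adjusted p = 0.0661) made the call. Leaving out 1 heart ended the edgeR call 3 times: adjusted p was 0.373 for WT replicate 1, 0.158 for WT replicate 2 and 0.0665 for PRMT1-cKO replicate 2. Of its gene reads 3.05% crossed a junction, too few to test. Slc11a2 (chr15:100387898-100425072), which encodes the divalent metal transporter DMT1, had 71 and 85 gene reads in PRMT1-cKO hearts and 108 and 72 in WT hearts. Its 3.48 and 3.55 CPM in PRMT1-cKO hearts lay below 4.78 and 4.21 CPM in WT hearts, but the log2 change of -0.36 ± 0.23 (SE, n = 2 per group) did not pass (edgeR adjusted p = 0.310). It had 2 and 2 exon reads in PRMT1-cKO hearts and 3 and 1 in WT hearts.

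Aco1 and Ireb2 encode the iron regulatory proteins IRP1 and IRP2, which bind IREs. Aco1 (chr4:40143081-40198338) had 128 and 107 exon reads in PRMT1-cKO hearts, against 154 and 125 exon reads in WT hearts, or 173 and 167 CPM against 249 and 233 CPM. The groups did not overlap, and the log2 change was -0.50 ± 0.18 (SE, n = 2 per group; edgeR adjusted p = 0.0359). That call was lost with DESeq2 (adjusted p = 0.194), with no read filter (adjusted p = 0.0772) and on leaving out any 1 heart: the edgeR adjusted p was then 0.208 for WT replicate 1, 0.0941 for WT replicate 2, 0.0581 for PRMT1-cKO replicate 1 and 0.0882 for PRMT1-cKO replicate 2. Aco1 gene reads were 13.5 and 13.6 CPM in PRMT1-cKO hearts and 15.1 and 14.5 CPM in WT hearts (log2 change -0.12 ± 0.19, edgeR adjusted p = 0.708). Ireb2 (chr9:54863755-54912534) had 470 and 579 gene reads in PRMT1-cKO hearts and 503 and 376 in WT hearts, or 23.1 and 24.2 CPM against 22.3 and 21.99 CPM. Its log2 change was 0.10 ± 0.19 (SE, n = 2 per group; edgeR adjusted p = 0.787) in gene reads and -0.07 ± 0.16 (edgeR adjusted p = 0.763) in exon reads, so changes of either sign remain within the error.

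Per length, the deposited RPKM of exon reads placed Fth1 above the other 9 genes in every heart. Ireb2 was at 2.09 and 2.05 RPKM in PRMT1-cKO hearts and 1.41 and 1.45 RPKM in WT hearts. Aco1 was at 1.56 and 1.27 RPKM in PRMT1-cKO hearts and 1.34 and 1.28 RPKM in WT hearts. The RPKM divisor holds all gene reads, as said for Fth1, so RPKM is not used here to compare the groups. In exon CPM, Ireb2 was at 300 and 347 in PRMT1-cKO hearts and 338 and 341 in WT hearts. Aco1 was lower in PRMT1-cKO hearts in exon CPM, as given above. Hamp was at 0 and 0.137 RPKM in PRMT1-cKO hearts, below Slc40a1 at 0.251 and 0.261 RPKM. In WT hearts Hamp was at 2.80 and 1.29 RPKM, above Slc40a1 at 0.0580 and 0.0545 RPKM. Gene reads in WT hearts did not separate Hamp, at 28 and 11, from Slc40a1, at 19 and 22. Exon reads there were 28 and 11 for Hamp and 10 and 8 for Slc40a1. RPKM divides reads that are almost only junction reads by exon length, and its order of genes holds for this measure alone. In WT hearts the RPKM range of Hamp covers the values of Ireb2 and lies partly over those of Aco1. The order of these 3 genes there is thus within the spread. Cp was at 0.183 and 0.235 RPKM in PRMT1-cKO hearts and 0.0369 and 0.0867 RPKM in WT hearts, and Tfrc at 0.345 and 0.104 RPKM in PRMT1-cKO hearts and 0.235 and 0.179 RPKM in WT hearts. Ftl1, Slc11a2 and Slc39a14 each had at most 11 exon reads in a heart, too few to rank.

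In the genes around hepcidin control, 6 of the 20 tested were higher and 1 lower in gene reads, with a median log2 change of 0.30. Among all genes tested, 11.5% were higher and 11.2% lower. Il6, the cytokine that raises hepcidin in the liver, had 13 and 17 gene reads in PRMT1-cKO hearts and 1 and 1 in WT hearts. It is counted among the 6 higher genes, but passed the read filter only through the PRMT1-cKO hearts. The direction of the Il6 test was thus set by the filter. The ratio of the sums was 13.4, with a 95% counting interval of 3.41 to 116, and the edgeR adjusted p of 1.54e-03 was lost without WT replicate 1 (0.0731). Its receptor chains were higher too, Il6st at 22.9 and 29.2 CPM in PRMT1-cKO hearts and 12.9 and 12.3 CPM in WT hearts, and Il6ra at 11.4 and 15.1 CPM against 5.98 and 6.96 CPM (edgeR adjusted p = 6.71e-04 and 1.08e-03). Smad6, which damps BMP signals, was 1.16 ± 0.20 higher on the log2 scale (SE, n = 2 per group; edgeR adjusted p = 2.15e-04). Exon reads of Bmp6, the BMP ligand that raises hepcidin, were 68 and 65 in PRMT1-cKO hearts and 31 and 26 in WT hearts (log2 change 0.97 ± 0.27, edgeR adjusted p = 0.0110); DESeq2 did not make the call (adjusted p = 0.0837), nor did edgeR when WT replicate 2 was left out (adjusted p = 0.0555). Bmp6 gene reads, 1329 and 1734 in PRMT1-cKO hearts and 1157 and 746 in WT hearts, did not pass (log2 change 0.54 ± 0.22, edgeR adjusted p = 0.0874). Exon reads of Neo1, the neogenin receptor, were lower (log2 change -0.59 ± 0.15, edgeR adjusted p = 0.00561), though not when WT replicate 1 was left out (adjusted p = 0.148); its gene reads, at -0.59 ± 0.22, did not pass (adjusted p = 0.0630). The genes with higher reads included both positive and negative regulators of hepcidin.

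Among the genes for uptake and delivery, 8 of 25 were higher and 4 lower in gene reads. The shares over all genes tested were 11.5% higher and 11.2% lower, and the median log2 change of the list was 0.31. Hp, haptoglobin that carries free haemoglobin, had 113 and 123 gene reads in PRMT1-cKO hearts and 13 and 17 in WT hearts (log2 change 2.80 ± 0.31, edgeR adjusted p = 1.93e-06). Lrp1, a receptor that takes up haem bound to hemopexin, had 2935 and 2544 exon reads in PRMT1-cKO hearts and 723 and 835 in WT hearts (log2 change 1.54 ± 0.14, edgeR adjusted p = 2.61e-07). Steap2, a metalloreductase, had 36 and 36 gene reads in PRMT1-cKO hearts and 10 and 8 in WT hearts (log2 change 1.83 ± 0.41, edgeR adjusted p = 0.00261). Both Steap2 and Trf, given next, passed the read filter only through the PRMT1-cKO hearts, so the direction of their tests was set by the filter. Trf, serum transferrin, had 23 and 20 gene reads in PRMT1-cKO hearts and 5 and 4 in WT hearts (edgeR adjusted p = 0.00680), but not with DESeq2 (adjusted p = 0.0599) nor with edgeR without WT replicate 1 (0.0951) or without WT replicate 2 (0.0504). Slc25a37, mitoferrin 1, had 49 and 39 gene reads in PRMT1-cKO hearts and 19 and 5 in WT hearts; its log2 change of 1.74 ± 0.43 (edgeR adjusted p = 0.00518) was 2.74 without WT replicate 1 and 1.23 without WT replicate 2 (adjusted p = 0.0624). Liver cell markers summed to 15.3 to 21.3 CPM in PRMT1-cKO hearts and 5.23 to 6.61 CPM in WT hearts, with Apoa1 at 0 and Alb at 1 and 1 gene reads in PRMT1-cKO hearts and 5 and 0 in WT hearts. Of the 11 markers 2 could be tested, Cyp2e1 and Ahsg, and both were higher. Neutrophil markers summed to 3.72 to 7.02 CPM of gene reads in PRMT1-cKO hearts and 0.117 to 0.310 CPM in WT hearts. The 3 of 8 that could be tested, S100a8, S100a9 and Retnlg, were higher, and Mpo and Elane were at 0. With WT sums this low, a marker could pass the read filter only through the PRMT1-cKO hearts. The direction of the tested markers was thus set by the filter. The part of liver cells and neutrophils in these results was not tested. Heph and Slc39a8, relatives of Cp and Slc39a14, were also higher, with log2 changes of 0.72 and 0.99 (edgeR adjusted p = 0.0215 and 0.0172). The 4 lower genes, named after their values were seen, were Mfsd7c at -1.43, Cacna1c at -1.16, Scara5 at -0.98 and Steap3 at -0.73 in log2 change of gene reads (edgeR adjusted p = 0.00247, 0.0112, 0.00516 and 0.0186). Of these 6 genes, Mfsd7c kept its call in each alternative. DESeq2 did not call Heph, Slc39a8 or Steap3 (adjusted p = 0.0982, 0.0917 and 0.0685). By edgeR, calls ended when WT replicate 1 was left out for Cacna1c (adjusted p = 0.234), Heph (0.466), Slc39a8 (0.150) and Steap3 (0.246), when WT replicate 2 was left out for Scara5 (0.0680), and when PRMT1-cKO replicate 2 was left out for Slc39a8 (0.231) and Steap3 (0.0621). In the list for storage and ferritin release 2 of 8 genes were tested, and neither passed.

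Of 18 tested genes for haem synthesis and breakdown, 4 were higher and 3 lower in gene reads. Over all genes tested, 11.5% were higher and 11.2% lower. The median log2 change of this list was -0.19. Hmox1, the inducible haem oxygenase that frees iron from haem, had 229 and 225 gene reads in PRMT1-cKO hearts, against 16 and 8 gene reads in WT hearts, or 11.2 and 9.41 CPM against 0.709 and 0.468 CPM. The log2 change was 4.09 ± 0.29 in gene reads (SE, n = 2 per group; edgeR adjusted p = 8.00e-09) and 4.90 ± 0.33 in exon reads (edgeR adjusted p = 1.63e-08), and the call held under each alternative tried. Hmox1 is also known from macrophages, whose markers were higher as given above; their part was not tested. Alas2, the first enzyme of haem synthesis in red cells, which carries a 5′ IRE, had 39 and 55 gene reads in PRMT1-cKO hearts and 14 and 0 in WT hearts. Its log2 change of 2.60 ± 0.56 (edgeR adjusted p = 0.00188) was not called with DESeq2 (adjusted p = 0.482), was 1.74 without WT replicate 2, and was 8.43 without WT replicate 1, where the remaining WT heart is at 0. Red cell markers summed to 22.5 to 23.4 CPM in PRMT1-cKO hearts and 8.01 to 8.95 CPM in WT hearts; the globin genes Hba-a1, Hba-a2 and Hbb-bt and the red cell factor Klf1 were listed at 0 in every heart, and their part was not tested. Cpox, an enzyme late in haem synthesis, was lower in exon reads, at 40 and 33 in PRMT1-cKO hearts and 71 and 80 in WT hearts (log2 change -1.31 ± 0.26, edgeR adjusted p = 8.62e-04). Exon reads of Tmem14c, a mitochondrial porphyrin transporter, were lower by the same test (log2 change -1.01 ± 0.23, edgeR adjusted p = 0.00269), but not when WT replicate 2 was left out (adjusted p = 0.0623); its gene reads, at -0.53 ± 0.26, did not pass (adjusted p = 0.170). Slc25a38, the glycine carrier for haem synthesis, was lower at -1.18 ± 0.35 and Pgrmc1 higher at 1.08 ± 0.31 in gene reads (edgeR adjusted p = 0.0193 and 0.0159), and neither passed with DESeq2 (adjusted p = 0.0984 and 0.102). The Slc25a38 call was also lost without WT replicate 1 (0.0991) and without PRMT1-cKO replicate 1 (0.0819), and the Pgrmc1 call without WT replicate 2 (0.126) and without PRMT1-cKO replicate 2 (0.0933), by edgeR adjusted p.

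Genes of iron-sulfur cluster assembly moved in 1 direction where they passed: 4 of 25 tested were lower and 0 higher in gene reads, and 6 of 13 lower and 0 higher in exon reads. Among all genes tested, 11.5% were higher and 11.2% lower in gene reads, and 17.6% higher and 18.7% lower in exon reads. The median log2 change of the list was -0.34 in gene reads and -0.64 in exon reads, against 0.01 and 0.00 over all genes tested. Fdx1, a ferredoxin, had 49 and 33 exon reads in PRMT1-cKO hearts and 77 and 66 in WT hearts (log2 change -1.06 ± 0.25, edgeR adjusted p = 0.00356). Nubpl, a complex I cluster factor, and Glrx5, a cluster carrier, were lower in exon reads at -1.34 ± 0.38 and -1.22 ± 0.41 (edgeR adjusted p = 0.0113 and 0.0289), and neither passed with DESeq2 (adjusted p = 0.0703 and 0.133). In gene reads neither passed, at -0.34 for Nubpl and -0.63 for Glrx5 (edgeR adjusted p = 0.261 and 0.202). Nubpl was not called when WT replicate 1 was left out (edgeR adjusted p = 0.194), and Glrx5 not without WT replicate 2 (0.0673) nor without PRMT1-cKO replicate 2 (0.182), by edgeR adjusted p; without PRMT1-cKO replicate 1 the Glrx5 change was -1.91. The gene-read calls of Isca2, Fdx1 and Lyrm4 were each lost without WT replicate 1, at edgeR adjusted p = 0.124, 0.275 and 0.444, and without WT replicate 2, at 0.116, 0.0740 and 0.163. Cardiomyocyte markers also summed lower in these PRMT1-cKO hearts (2327 to 2729 CPM, against 4676 to 4738 CPM in WT hearts), and their part was not tested.

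**Figure D4:**
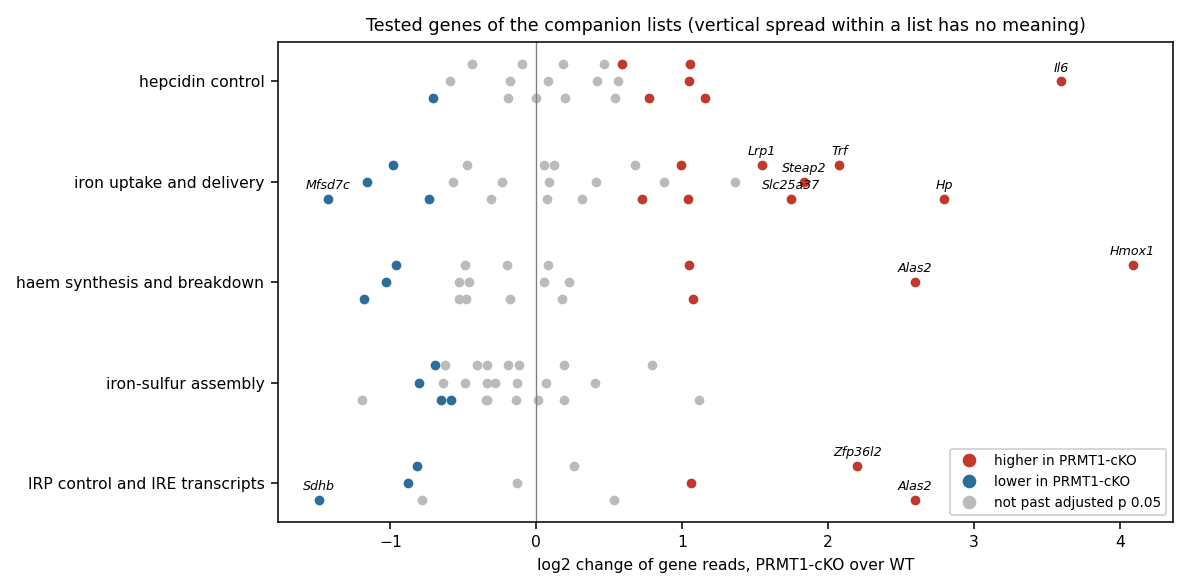
Log2 change of gene reads, PRMT1-cKO over WT (horizontal axis), for each tested gene of 5 companion lists (rows); red genes were higher and blue genes lower in PRMT1-cKO at an adjusted p under 0.05, grey genes did not pass, and the position within a row has no meaning. Hmox1 (4.09), Il6 (3.60) and Hp (2.80) lie farthest to the right, and no gene of iron-sulfur assembly is red.

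Among IRP regulators and IRE transcripts outside the 10 genes, 3 of 10 were higher and 3 lower in gene reads. Of all genes tested, 11.5% were higher and 11.2% lower. Fbxl5, which targets IRP2 for degradation when iron is high, had 366 and 536 gene reads in PRMT1-cKO hearts and 230 and 157 in WT hearts (log2 change 1.06 ± 0.20, edgeR adjusted p = 5.99e-04), none of them exon reads. Sdhb, an iron-sulfur subunit of succinate dehydrogenase, and Epas1, which encodes HIF-2alpha, were lower in exon reads at -1.73 ± 0.14 and -1.10 ± 0.13 (edgeR adjusted p = 9.93e-08 and 6.40e-06). Next, Zfp36l2 passed the read filter only through the PRMT1-cKO hearts, so the direction of its test was set by the filter. Zfp36l2, a factor for mRNA decay, had 23 and 25 gene reads in PRMT1-cKO hearts and 1 and 8 in WT hearts (log2 change 2.20 ± 0.61, edgeR adjusted p = 0.0125); the change was 1.19 without WT replicate 1 (adjusted p = 0.299), 4.43 without WT replicate 2, and not called with DESeq2 (adjusted p = 0.0614).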

How the data were processed

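Cardiac total RNA was extracted with ISOGEN II, depleted of ribosomal RNA with RiboMinus and made into libraries with the SOLiD total RNA-Seq kit, per the labels' protocols. The build was GRCm38, per the submitters' processing notes; no source used here names the aligner, the counting program or its use of strand. The authors deposited counts of gene, exon and intron reads, RPKM, a normalized signal whose sorted values are the same in the 4 libraries (not tested here), and, per the file headers, a p-value, corrected p-value and signed fold change score of their EDGE test. In all 43346 genes gene reads equal exon plus intron reads, and of 2605955 exon reads 29 did not cross a junction. The table lists no exon for 13626 genes, which took 61.7 to 73.4% of gene reads. Start coordinates were turned to 1-based.

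Each kind of count was fitted on genotype alone by edgeR's quasi-likelihood method (version 4.0.16, R 4.3.3), after a filterByExpr filter and TMM scaling. The filter asked for about 10 reads, scaled to library size, in at least 2 libraries, and for 15 reads in total. A gene could thus pass through the PRMT1-cKO hearts alone or the WT hearts alone. Tests were two-sided, and p-values were adjusted by Benjamini and Hochberg over all genes tested, with 0.05 as the threshold; SE is the log2 change over the square root of F. Exon against intron reads used diffSpliceDGE with Simes p-values. The fits were tested on simulated data. DESeq2 1.42.0, RLE scaling, 2 other filters, a replicate block, scaling without genes lacking an exon and leaving out each heart were the alternatives. A count of 0 allows up to 3 reads, 3.92 to 5.51 CPM of exon reads; floors and counting intervals cover counting error only. Promoters came from RefSeq (GRCm38.p6), transcripts from GENCODE M21, and copies from blastn 2.17.0.

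The 10 genes, the companion lists and the tests were chosen with earlier results of these data known. From each companion list, up to 4 genes past the gene-read test and up to 2 further genes past the exon-read test were named, by size of log2 change. Cell type markers, Heph, Slc39a8, the 4 lower genes of uptake and delivery and genes that overlap or copy a member were named beside results they touch. Some genes of these lists are counted but not reported here by name.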

Additional observations from a re-analysis of the deposited data

How the results depend on the processing

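Gene counts past the threshold were 3154 in gene reads, 1723 in exon reads, 2886 in intron reads and 151 in exon against intron reads. With DESeq2 the exon count was 1096 and the intron count 1783. Leaving out 1 heart gave 1815 to 3664 in gene reads (1815 without WT replicate 1), 1265 to 1704 in exon reads, 1632 to 3036 in intron reads (1632 without WT replicate 1) and 25 to 261 in exon against intron reads. Of the iron genes, 4 changed in gene reads, 5 in exon reads and 4 in intron reads; leaving out 1 heart gave 2 to 5, 1 to 5 and 3 to 5. In exon reads the number was 1 with DESeq2, 3 with no read filter and 2 at a minimum count of 30, where fewer genes were tested. Reversed signs were seen for values that did not pass the test. Over the fits that leave out 1 heart, the log2 change of Tfrc ran between -1.17 and 0.0697 in gene reads, -1.46 and 0.0299 in exon reads and -1.02 and 0.0061 in intron reads, with the lowest without PRMT1-cKO replicate 1 and the highest without PRMT1-cKO replicate 2. Ireb2 exon reads ran between -0.15 and 0.0445, and Aco1 intron reads between -0.0544 and 0.17. In exon against intron reads, Tfrc ran between -0.64 and 0.35, Ireb2 between -0.39 and 0.13, and Cp between -0.38 and 0.99; with the replicate block Tfrc was -0.0419. The cause of these shifts was not tested, apart from the smaller number of hearts or genes tested. With 1 heart left out, the lone heart of its group is assumed to vary like the other group.

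The replicate numbers are not stated to pair hearts, and the correlation of same-numbered deviations was -0.124 in gene reads, -0.00916 in exon reads and -0.0934 in intron reads. With the replicate number as a block, 2806 genes changed in gene reads, 1583 in exon reads, 2561 in intron reads and 66 in exon against intron reads, with 3, 3 and 3 of the iron genes in the first 3. With the pairing crossed, chosen after seeing the data, the counts were 4329, 1804 and 3702.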
